A study of Mus musculus with 10 samples.

Results

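Genes of the lysosome were followed in the tumour epithelium of KPFSR mice, which carry engineered alleles and develop ductal carcinoma of the pancreas. The set holds 48 of the 15624 genes in the count table. It was chosen by symbol, with earlier results of these data known. It takes in every gene whose symbol starts with Atp6v0, Atp6v1 or Atp6ap (21 genes of the proton pump) and 27 named genes for lysosomal enzymes, membrane proteins and their regulators.

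RNA-seq counts came from 6 libraries of tumours treated with tamoxifen and 4 of tumours treated with corn oil, the vehicle. The epithelium was cut out of frozen sections by laser capture microdissection, and the labels name the genotype of all 10 libraries as KPFSR. In that model, as published, a recombinase acting in the pancreas turns on tumour-driving alleles, and tamoxifen then activates a Cre made in all cells of the mouse that deletes Slc7a11, which encodes the cystine importer of the plasma membrane. Alleles, age, dose, time of treatment and the animal behind each library are not given in the labels. No group received tamoxifen without the floxed allele, so the drug and the deletion cannot be told apart.

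The lysosome breaks down proteins, sugars and lipids with hydrolases that need an acid interior. The acid is made by the V-ATPase, a rotary pump in which the V1 sector splits ATP and turns the V0 sector, which carries protons through the membrane. Many of these genes are controlled together by TFEB and TFE3, transcription factors that the kinase mTORC1 keeps out of the nucleus when nutrients are plentiful and that bind a short element called CLEAR, built around the letters CACGTG. Lysosomes also return cystine from degraded proteins to the cytosol through the carrier encoded by Ctns.

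The libraries held 6899347 to 19462115 counts in the tamoxifen group and 16473902 to 36132316 in the corn oil group. Levels of the ductal keratin Krt18 were 4904 to 9360.2 normalised CPM in tamoxifen libraries and 3185 to 10013 in corn oil libraries. Of 10 ductal markers, 9 had a log2 fold change below 0 (median -0.51), where 6596 of all 13006 genes tested did. An unadjusted p under 0.05 was found for 3 of the 9, where 5.27% of all genes were lower at that level. Normalised CPM is the CPM of a gene after TMM scaling of the library. Slc7a11 had 5.90 to 19.3 normalised CPM in the tamoxifen group, against 23.2 to 40.1 in the corn oil group, a log2 fold change of -1.41 with an adjusted p of 0.311 by edgeR's quasi-likelihood test. Of the deleted part of that gene the counts per gene say nothing, so this level is no measure of how many cells lost it. Tamoxifen replicates 1 to 3 resembled one another more (Pearson r of log2 CPM across genes 0.921 to 0.963) than did any other pair of libraries (0.723 to 0.878), and nothing in the labels tells if 1 animal gave them. By Xist and Ddx3y, 1 of 6 tamoxifen libraries and 2 of 4 corn oil libraries came from females. Summed macrophage markers were 846 to 2459 normalised CPM in tamoxifen libraries, the highest in replicate 4, and 1045 to 1594 in corn oil libraries. Most of the lowest sum was Cd14, which was higher in every tamoxifen library than in any corn oil library. Of 16 tested macrophage markers, 11 had a log2 fold change below 0. Summed fibroblast markers were 736 to 2815 in tamoxifen libraries, with replicates 4 and 6 at 2442 and 2815, and 765 to 1362 in corn oil libraries.

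The CLEAR letters themselves are shown because they stand in the promoters of part of the set and are more frequent there than over all genes. In the RefSeq promoters (GRCm38.p6, 250 bases before to 50 after the start site), 39 of the 48 genes had an entry, some with several start sites. The motif CACGTG, which reads the same on both strands, stood in 12 of the 39 (30.8%), against 8.09% of all 27025 genes in the table. The longer TCACGTGA, also the same on both strands and always holding a CACGTG, stood in 7 of the 39 (17.9%), against 1.12% of all genes in the table. Its 9 occurrences follow, each in 30 bases written 5′ to 3′ on the gene's strand with TCACGTGA in capitals.
Atp6v0d1, chr8:105566050-105566079, minus strand: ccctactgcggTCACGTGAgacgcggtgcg
Atp6v0e, chr17:26676387-26676416, plus strand: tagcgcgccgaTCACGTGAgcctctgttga
Atp6v1a, chr16:44139373-44139402, minus strand: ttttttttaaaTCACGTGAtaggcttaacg
Ctsa, chr2:164833749-164833778, plus strand: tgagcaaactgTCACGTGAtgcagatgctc
Ctsa, chr2:164833766-164833795, plus strand: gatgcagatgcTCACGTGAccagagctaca
Ctsd, chr7:142387908-142387937, minus strand: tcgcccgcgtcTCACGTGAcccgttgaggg
Gla, chrX:134601215-134601244, minus strand: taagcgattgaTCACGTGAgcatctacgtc
Gla, chrX:134601182-134601211, minus strand: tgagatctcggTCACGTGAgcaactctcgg
Mcoln1, chr8:3500462-3500491, plus strand: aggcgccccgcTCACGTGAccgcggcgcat

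The CACGTG inside each occurrence in Atp6v0d1, Atp6v0e and Ctsa began within 12 bases of the annotated start site. Those of Gla lay farthest upstream, with their CACGTG beginning at -227 and -194. The bases next to the motif differed from gene to gene. Lamp1 had no TCACGTGA, but 4 copies of CACGTG stood in the 80 bases before its start site, given here with each copy in capitals.
Lamp1, chr8:13159081-13159160, plus strand: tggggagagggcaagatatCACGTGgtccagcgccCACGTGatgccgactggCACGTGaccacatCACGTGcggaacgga

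The remaining genes with CACGTG but not TCACGTGA were Atp6v0b, Ctsl, Gaa and Glb1. A match is a description of these windows and not a measured binding site.

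The lysosomal genes took up overlapping shares of the RNA in tamoxifen and corn oil tumours. Their share of all counts was 1.38% ± 0.115 in tamoxifen libraries and 1.26% ± 0.158 in corn oil libraries (SD, n = 6 and 4). A level printed below with ± is a mean with its SD over the same numbers of libraries. Of the 48 genes, 47 had enough counts to be tested. Atp6v1c2, encoding the less common form of subunit C of the pump, did not, with 5, 7, 17, 1, 0 and 0 counts in tamoxifen replicates 1 to 6 and 13, 12, 25 and 0 in corn oil replicates 1 to 4. By edgeR's quasi-likelihood test 0 of the 47 passed an FDR of 0.05, where 0.0384% of all 13006 genes tested did (0.00769% higher and 0.0308% lower), and the smallest adjusted p among the 47 was 0.228. At an unadjusted p under 0.05, 5 of the 47 were higher in tamoxifen (10.6%, against 4.43% of all genes) and 2 were lower (4.26%, against 5.27% of all genes), which makes 7 of the 47 in either direction (14.9%, against 9.7% of all genes). The 5 were Atp6v0a1, Gaa, Atp6v0e2, Sqstm1 and Tfe3, and the 2 were Ctsh and Atp6v1d. Of the other tools, DESeq2 called 1 member at that FDR (Atp6v0a1), where it called 243 of all genes. Limma voom with sample quality weights called 7 (Atp6v0a1, Gaa, Sqstm1 and Tfe3 higher, Ctsh, Atp6v1d and Ctsa lower), where it called 1251 of all genes. The count of 2 lower genes was 0 without tamoxifen replicate 1, 2 or 3 or corn oil replicate 2 or 3. In those fits 3.41% to 4.55% of all genes were lower. The count was 5 without tamoxifen replicate 4 (6.67% of all genes lower) and 1 without tamoxifen replicate 6 (7.07%).

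Most fold changes were small. The median log2 fold change of the 47 genes, tamoxifen over corn oil, was 0.043, beside -0.010 over all genes tested, with 27 genes above 0 and 20 below. In size, the median was 0.245 for the 47 and 0.433 for all genes, and 76.6% of the 47 lay under 0.5 against 55.3% of all genes. The 47 were also measured more closely, with a median SE of 0.29 against 0.53. Among genes with at least 50 normalised CPM the gap was narrower, with a median size of 0.241 for 36 lysosomal genes and 0.323 for 4186 genes, and 8.33% of these lysosomal genes lay over 1 against 7.48% of these genes.

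**Figure D1:**
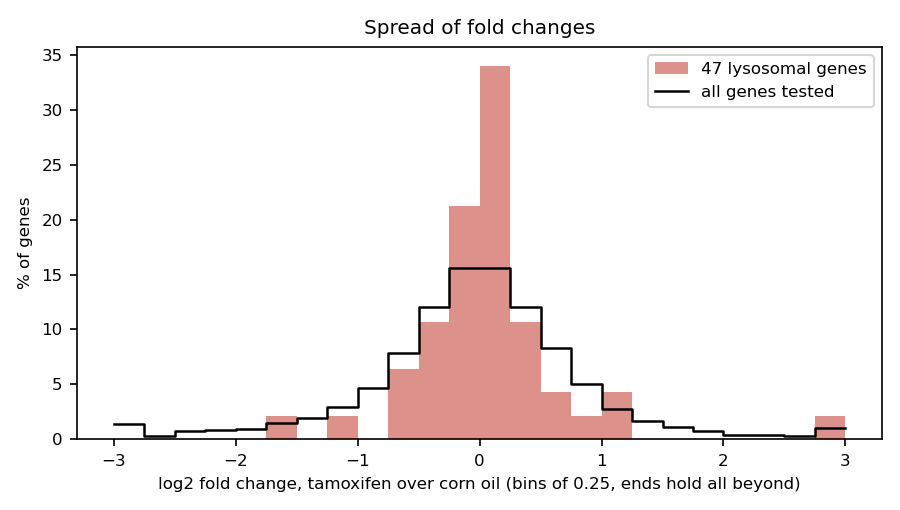
Spread of log2 fold changes (tamoxifen over corn oil, horizontal axis, bins of 0.25 with the ends holding all beyond) for the 47 lysosomal genes (bars) and the 13006 genes tested (line), as % of each set. The lysosomal genes crowd around 0, with 76.6% under 0.5 in size against 55.3% of all genes.

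**Figure D2:**
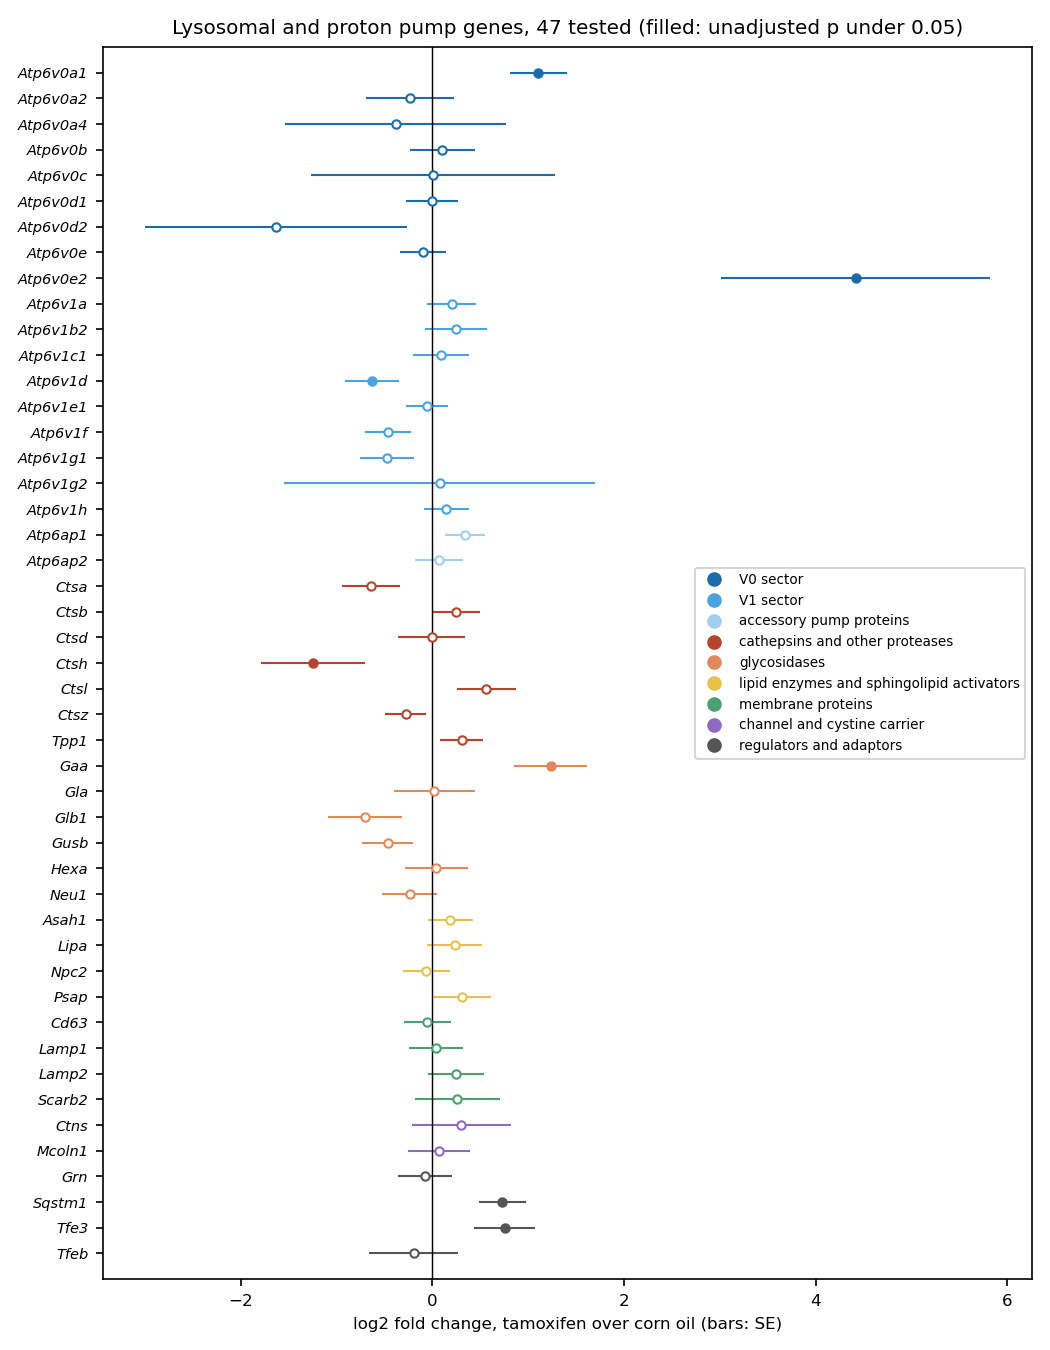
Log2 fold change, tamoxifen over corn oil, of each of the 47 lysosomal genes, coloured by role, with bars of 1 SE and filled points for an unadjusted p under 0.05. Atp6v0e2 stands far to the right with a wide bar (4.42 ± 1.40), and most others lie within 0.5 of 0.

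Levels ranged widely between the genes. Set per kilobase of exon, Ctsd was highest at 618 normalised CPM per kb over all 10 libraries, followed by Atp6v1f at 412, Cd63 at 357 and Lamp1 at 278. The regulators were among the lowest of the well measured genes, with Tfeb at 4.05 and Tfe3 at 4.02 CPM per kb, and the cystine carrier Ctns stood at 3.54.

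In the V0 sector, the gene with the smallest p was Atp6v0a1 (chr11:101009452-101063719, plus strand, GRCm38), encoding the a1 form of the large subunit through which protons cross the membrane. It had a lowest, median and highest normalised CPM of 57.8, 78.1 and 116 in tamoxifen libraries, against 54.7, 33.3, 25 and 37.1 in the corn oil libraries. All 6 tamoxifen libraries lay above all 4 corn oil libraries, the nearest being tamoxifen replicate 4 and corn oil replicate 1. The log2 fold change was 1.11 ± 0.30 (SE), with an unadjusted p of 0.00249 and an adjusted p of 0.228 by edgeR. Its unadjusted p stayed under 0.05 in all 22 fits that were run, with log2 fold changes of 0.96 to 1.34. Groups did not overlap for 2 of the 47 genes (4.26%), both higher in tamoxifen, where 3.23% of all genes tested did not overlap (1.28% higher and 1.95% lower). The other was the accessory gene Atp6ap1. The exact two-sided permutation p of each was 0.00952, the smallest that the 210 arrangements of 6 and 4 libraries can give, and it follows from the gap itself. The count of genes whose groups did not overlap was 5 without tamoxifen replicate 4 and 4 without tamoxifen replicate 6. Groups of fewer libraries overlap less easily for any gene, and the shares of all genes in those fits are not given here.

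The a subunit has 4 paralogs, and their mix differed between libraries. From CPM per kb, Atp6v0a1 made up 49.5% ± 9.90 of the subunit in tamoxifen libraries (34.3% to 63.2%) and 26.8% ± 8.0 in corn oil libraries (20.3% to 38.4%). Tcirg1, the a3 form known from osteoclasts and not a member by the symbol rule, made up 26.8% ± 7.76 in tamoxifen and 39.5% ± 10.3 in corn oil. Atp6v0a2, the form known from the Golgi, made up 19.98% ± 11.99 in tamoxifen and 27.5% ± 15.7 in corn oil, and was the leading form in tamoxifen replicate 4 (44.0%) and corn oil replicate 2 (50.9%). Atp6v0a4, the kidney form, made up 3.74% ± 1.79 in tamoxifen and 6.23% ± 8.38 in corn oil. The ranges of Atp6v0a1 shares overlapped between the groups, in tamoxifen replicate 4 and corn oil replicate 1, although its CPM did not. No test was run on the shares.

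The largest fold change of the set was that of Atp6v0e2 (chr6:48537615-48541801, plus strand), a paralog of the small e subunit. Raw counts were 558, 1102, 1504, 1649, 1078 and 4 in tamoxifen replicates 1 to 6, against 89, 3, 122 and 0 in corn oil replicates 1 to 4. In normalised CPM these were 48.6, 55.6, 71.3, 104, 53.6 and 0.654 in tamoxifen and 5.48, 0.0915, 4.92 and 0 in corn oil. Tamoxifen replicates 1 to 5 were high, and tamoxifen replicate 6 lay among the corn oil values. The log2 fold change was 4.42 ± 1.40 (SE), with an unadjusted p of 0.0077 and an adjusted p of 0.311. With sex as a covariate it was 3.53, with an unadjusted p of 0.144. The other e gene, Atp6v0e, was at 442 ± 112 normalised CPM in tamoxifen and 472 ± 81.1 in corn oil, so that Atp6v0e2 made up 17.1% ± 10.1 of the subunit per kb in tamoxifen libraries, with a range of 0.169% to 29.5%, and 0.776% ± 0.889 in corn oil libraries.

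**Figure D3:**
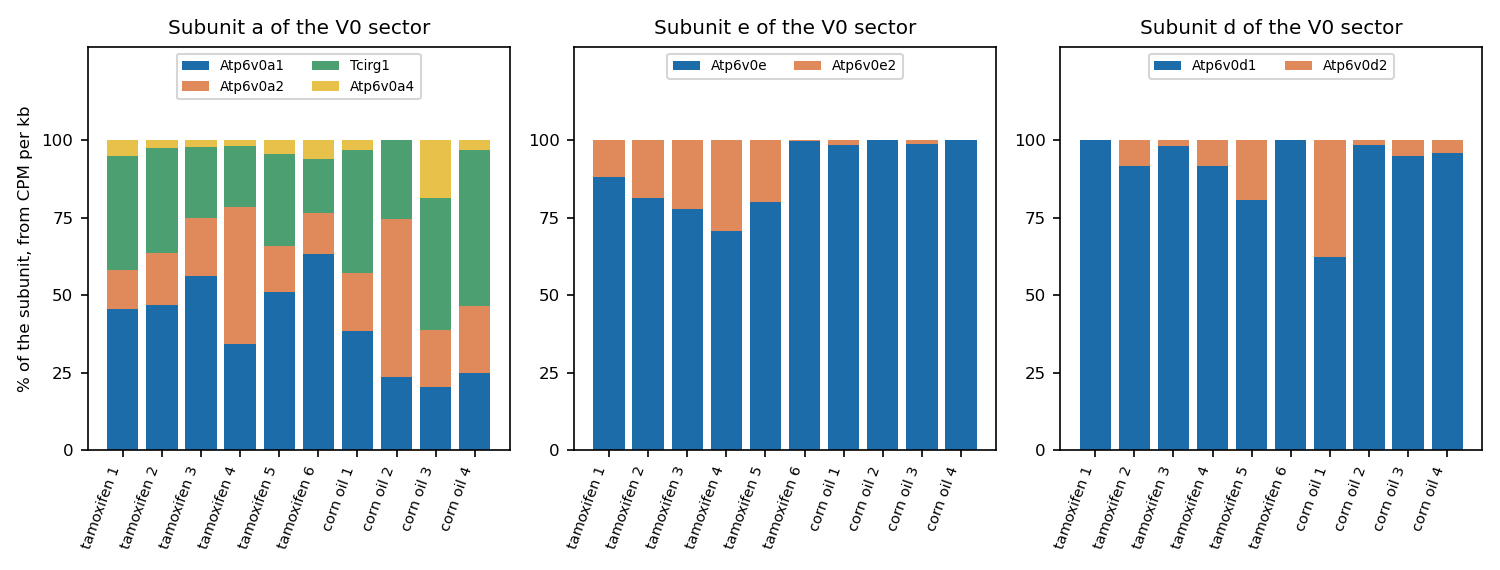
Share of each paralog within the a, d and e subunits of the V0 sector, from CPM per kb (vertical axis, %), in each tamoxifen library (left) and corn oil library (right). Atp6v0a1 averages 49.5% of subunit a in tamoxifen and 26.8% in corn oil, and Atp6v0e2 reaches 29.5% of subunit e in tamoxifen replicate 4 but 0.169% in tamoxifen replicate 6.

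The remaining V0 genes showed no such separation. Atp6v0b, a proton-carrying ring subunit, was at 231 ± 63.2 normalised CPM in tamoxifen and 215 ± 103 in corn oil, a log2 fold change of 0.10 ± 0.34 (SE). Atp6v0d1, the common form of subunit d, was at 95.5 ± 31.4 in tamoxifen and 95.6 ± 17.4 in corn oil. Atp6v0d2, the form of d known from osteoclasts and macrophages, took 0, 12.8, 2.32, 13.8, 24 and 0 normalised CPM in tamoxifen replicates 1 to 6 and 95.2, 2.87, 6 and 5.65 in corn oil replicates 1 to 4, so that 1 corn oil library stood far above the rest. The part of macrophages in that value was not tested; summed macrophage markers were 1594 normalised CPM in that library, against 1045 to 1169 in the other corn oil libraries. The library with the highest sum of macrophage markers was tamoxifen replicate 4 at 2459, where Atp6v0d2 was at 13.8. Atp6v0c, the main subunit of the proton ring, was counted at only 0.0995 to 1.47 normalised CPM in tamoxifen and 0.185 to 1.25 in corn oil. GENCODE lists 2 processed pseudogenes of Atp6v0c, and how reads that map to several places were counted is not given in the sources used here, so its level is uncertain.

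In the V1 sector 9 genes were tested, with a median log2 fold change of 0.08. Atp6v1d, encoding a subunit of the central rotor, had a lowest, median and highest normalised CPM of 59.6, 64.9 and 134 in tamoxifen libraries, against 95.2, 132, 127 and 151 in the corn oil libraries. Tamoxifen replicates 1 to 3 and 6 lay below all corn oil libraries, and replicates 4 and 5 lay among them. Its log2 fold change was -0.63 ± 0.29 (SE), with an unadjusted p of 0.0469 and an adjusted p of 0.507. Without tamoxifen replicates 1 to 3 it was -0.30, with an unadjusted p of 0.396, and its unadjusted p was over 0.05 without any 1 of tamoxifen replicates 1, 2, 3 and 6 or corn oil replicates 2, 3 and 4. With all libraries it was 0.0507 with sex as a covariate, 0.052 with RLE factors and 0.055 with DESeq2. Atp6v1f and Atp6v1e1, the most abundant V1 genes in CPM, were at 380.1 ± 70.7 and 308 ± 61 in tamoxifen, against 525 ± 161 and 319.5 ± 37.6 in corn oil. Their log2 fold changes were -0.46 ± 0.24 and -0.05 ± 0.22 (SE), with adjusted p-values of 0.58 and 0.976. The catalytic subunit Atp6v1a had a log2 fold change of 0.20, and Atp6v1b2, Atp6v1c1 and Atp6v1h had 0.25, 0.09 and 0.15. Of paralogs, Atp6v1c1 made up at least 98.0% of subunit C per kb in every tamoxifen library and at least 94.6% in every corn oil library, and Atp6v1g1 made up at least 98.9% of Atp6v1g1 plus Atp6v1g2 in tamoxifen and 99.1% in corn oil.

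Both accessory pump genes were well expressed. Atp6ap1, which helps the pump assemble and lies on the X chromosome, had 275, 312, 275, 306, 301 and 450.2 normalised CPM in tamoxifen replicates 1 to 6, against 273, 256, 233 and 248 in corn oil replicates 1 to 4. The groups did not overlap, but the gap was narrow, with 275.2 as the lowest tamoxifen value and 273.2 as the highest corn oil value, and tamoxifen replicate 6 stood above its group. The log2 fold change was 0.34 ± 0.21 (SE), with an adjusted p of 0.663. Atp6ap2, also known as the prorenin receptor, was at 164 ± 34 in tamoxifen and 157 ± 46.1 in corn oil, a log2 fold change of 0.07 ± 0.25 (SE).

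Among the proteases, Ctsh, an aminopeptidase cathepsin, was the member with the lowest unadjusted p of those lower in tamoxifen. It had 84.4, 104, 74.7, 508, 295 and 357 normalised CPM in tamoxifen replicates 1 to 6, against 400.0, 784, 786 and 279 in corn oil replicates 1 to 4. Tamoxifen replicates 1 to 3 lay far below every corn oil library, and replicates 4 to 6 lay among them. This gave a log2 fold change of -1.25 ± 0.54 (SE), with an unadjusted p of 0.0381 and an adjusted p of 0.481 by edgeR. Without tamoxifen replicates 1 to 3 it was -0.53, with an unadjusted p of 0.227, and without tamoxifen replicates 4 and 6 it was -2.01, with an adjusted p of 0.0881. Its unadjusted p was over 0.05 without any 1 of tamoxifen replicates 1, 2 and 3 or corn oil replicates 2 and 3.

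The most abundant proteases differed little in mean. Ctsd, the aspartic protease cathepsin D, had a lowest, median and highest normalised CPM of 915, 1334 and 2186 in tamoxifen libraries, against 1706, 2151, 1258 and 717 in the corn oil libraries. Ctsb, a cysteine protease, had a lowest, median and highest normalised CPM of 1282, 1574 and 1665 in tamoxifen libraries, against 1966, 1047, 933 and 1261 in the corn oil libraries. The groups overlapped for both, and the corn oil values were the more scattered for Ctsb. Their log2 fold changes were -0.01 ± 0.35 and 0.25 ± 0.25 (SE), with adjusted p-values of 0.999 and 0.83. Of the other 4, Ctsl had 0.56 and the tripeptidyl peptidase gene Tpp1 0.30, and Ctsa and Ctsz had -0.64 and -0.28, with adjusted p-values of 0.6, 0.729, 0.527 and 0.743. Exons of Ctsb, Ctsa, Ctsz and Ctsl overlap genes on the opposite strand in GENCODE, as those of 15 of the 48 genes do, and these libraries do not mark strand, so reads of the overlapping genes cannot be told apart.

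Of the 6 glycosidases, Gaa (chr11:119267887-119285454, plus strand), encoding the acid alpha-glucosidase that breaks down glycogen in lysosomes, had the smallest p. It had 139, 194, 200.1, 128, 174 and 47.9 normalised CPM in tamoxifen replicates 1 to 6, against 90.8, 41.2, 65.6 and 53.4 in corn oil replicates 1 to 4. Tamoxifen replicates 1 to 5 all lay above the corn oil libraries, and replicate 6, at 47.9, lay among them. Over both groups the log2 fold change was 1.23 ± 0.38 (SE), with an unadjusted p of 0.00611 and an adjusted p of 0.295. Without tamoxifen replicates 4 and 6 it was 1.5, with an adjusted p of 0.0457, and without replicates 1 to 3 it was 0.90, with an unadjusted p of 0.0756. With sex as a covariate it was 1.01, with an unadjusted p of 0.0566. The most abundant glycosidase gene in CPM, the sialidase Neu1, was at 119 ± 40.4 in tamoxifen and 140.4 ± 31.3 in corn oil, a log2 fold change of -0.24 ± 0.28 (SE). The beta-galactosidase gene Glb1 had -0.70, the beta-glucuronidase gene Gusb -0.47, Hexa 0.04 and Gla 0.02, and all 4 had adjusted p-values of at least 0.617.

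None of the 4 genes for lipid breakdown had an unadjusted p under 0.05, where 9.7% of all genes did. Psap, the precursor of the sphingolipid activator proteins, was at 604 ± 176 normalised CPM in tamoxifen and 487 ± 168 in corn oil, a log2 fold change of 0.31 ± 0.30 (SE). Npc2, which carries cholesterol out of the lysosome together with Npc1, was at 377 ± 78.8 in tamoxifen and 393 ± 107 in corn oil, a log2 fold change of -0.06 ± 0.24 (SE). The acid ceramidase gene Asah1 and the acid lipase gene Lipa had 0.19 and 0.23. The smallest adjusted p of the 4 was 0.82.

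The groups overlapped for all 4 membrane proteins. The tetraspanin gene Cd63 was at 1296 ± 289 normalised CPM in tamoxifen and 1344 ± 288 in corn oil, and Lamp1, a heavily glycosylated protein that lines the lysosome, was at 751 ± 220.4 in tamoxifen and 731 ± 225 in corn oil. Their log2 fold changes were -0.05 ± 0.25 and 0.04 ± 0.28 (SE). Lamp2 and Scarb2, the receptor that brings glucocerebrosidase to lysosomes, had 0.25 and 0.26. The smallest adjusted p of the 4 was 0.864. GENCODE lists a pseudogene of Cd63, so its count is uncertain in the same way as that of Atp6v0c.

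Ctns, the lysosomal cystine exporter, was measured at a low level in both groups. It had a lowest, median and highest normalised CPM of 6.79, 11.9 and 23.3 in tamoxifen libraries, against 16.2, 9.3, 9.31 and 7.32 in the corn oil libraries. The ranges overlapped almost wholly, with a log2 fold change of 0.30 ± 0.52 (SE) and an adjusted p of 0.918. Mcoln1, the calcium channel of the lysosome membrane, had a lowest, median and highest normalised CPM of 30.9, 66.5 and 79.4 in tamoxifen libraries, against 86.6, 38.9, 43.8 and 65.9 in the corn oil libraries, a log2 fold change of 0.07 ± 0.33 (SE) and an adjusted p of 0.978.

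Among the regulators and adaptors, 2 of 4 genes were higher in tamoxifen at an unadjusted p under 0.05, where 4.43% of all genes were. The group is small and was chosen with earlier results known, so this count is a description only. Sqstm1 (chr11:50199366-50210827, minus strand), encoding p62, an autophagy receptor that is itself degraded in lysosomes, had 440.0, 543, 555, 787, 575 and 549 normalised CPM in tamoxifen replicates 1 to 6, against 342, 481, 245 and 315 in corn oil replicates 1 to 4. Every tamoxifen library but replicate 1 lay above every corn oil library. Exons of Sqstm1 overlap those of Mrnip on the opposite strand. The log2 fold change was 0.73 ± 0.25 (SE), with an unadjusted p of 0.0114 and an adjusted p of 0.328, and the unadjusted p stayed under 0.05 in all 22 fits, with log2 fold changes of 0.60 to 0.93. Tfe3 had 44.9, 50.8, 55.5, 25.4, 47.6 and 42.6 in tamoxifen and 25.5, 20.2, 37.4 and 22.4 in corn oil. Its tamoxifen replicates 1, 2, 3, 5 and 6 lay above the corn oil libraries and replicate 4 lay among them, with a log2 fold change of 0.75 ± 0.32 (SE), an unadjusted p of 0.0346 and an adjusted p of 0.471. Tfe3 lies on the X chromosome, and with sex as a covariate its log2 fold change was 0.70, with an unadjusted p of 0.0618. Its unadjusted p was also over 0.05 without any 1 of tamoxifen replicates 1, 2, 3 and 5 or corn oil replicates 1, 2 and 4. Tfeb, its paralog, had 12.3, 19.8, 19.8, 25.3, 9.05 and 44.3 in tamoxifen and 27, 34.1, 22 and 16.3 in corn oil, a log2 fold change of -0.19 ± 0.46 (SE). Grn, encoding progranulin, was at 362 ± 122 in tamoxifen and 380.3 ± 101 in corn oil, a log2 fold change of -0.07 ± 0.28 (SE).

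**Figure D4:**
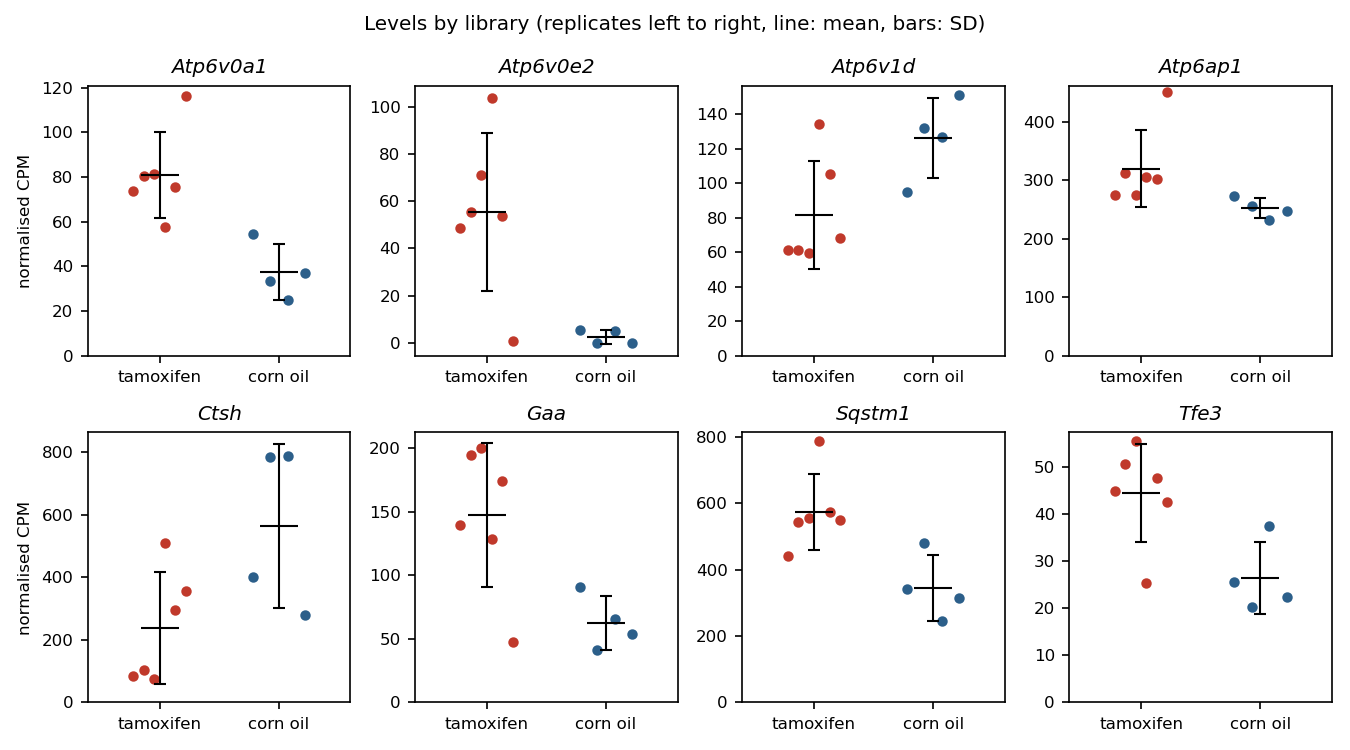
Normalised CPM (vertical axis) of 8 lysosomal genes in each tamoxifen library (left) and corn oil library (right), with the mean as a line and bars of 1 SD. The groups do not overlap for Atp6v0a1, and for Gaa and Atp6v0e2 tamoxifen replicate 6 lies among the corn oil values.

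Fold changes are given here by motif, with no test of the difference. The 7 tested genes with TCACGTGA had a median log2 fold change of -0.00 and a range of -0.64 to 0.20, and 0 had an unadjusted p under 0.05 by edgeR, where 9.7% of all genes did. The lowest of the 7 was Ctsa at -0.64, which had an unadjusted p under 0.05 with upper-quartile factors and with robust dispersion and passed the FDR with limma voom. The 31 tested genes with a promoter entry and no TCACGTGA had a median of 0.07, and 6 had an unadjusted p under 0.05. With CACGTG, the medians were 0.03 for 12 genes with the motif and 0.05 for 26 without it. Of the 5 genes higher at an unadjusted p under 0.05, Gaa holds 1 CACGTG. None stands in the RefSeq windows of Atp6v0a1, Atp6v0e2, Sqstm1 or Tfe3. Some RefSeq windows, such as those of Atp6v0a1, Cd63 and Scarb2, lay wholly inside the gene as GENCODE places it. Bases before the GENCODE start were not searched there, so a missing motif says nothing of them.

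Libraries differed in which lysosomal genes they held at the extremes. Tamoxifen replicate 4 had the highest value of 14 of the 47 genes, among them Atp6v0a2, Sqstm1, Psap, Cd63 and Lamp1. Tamoxifen replicate 6, the shallowest library at 6899347 counts, had the highest value of 13 and the lowest of 8. The mean log2 CPM of the 47 genes ran from 6.54 to 6.98 in tamoxifen libraries and from 6.40 to 6.82 in corn oil libraries. Tamoxifen replicate 4 also had the most macrophage marker signal, with Lyz2 at 830.4 against 516 in the highest corn oil library, and with replicate 6 the most fibroblast marker signal, with Dcn at 291 and 122, against a highest corn oil value of 32.1. The part of these cells in the lysosomal levels was not tested. In RNA pooled from captured areas, fewer cells of a type and less RNA per cell cannot be told apart.

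**Figure D5:**
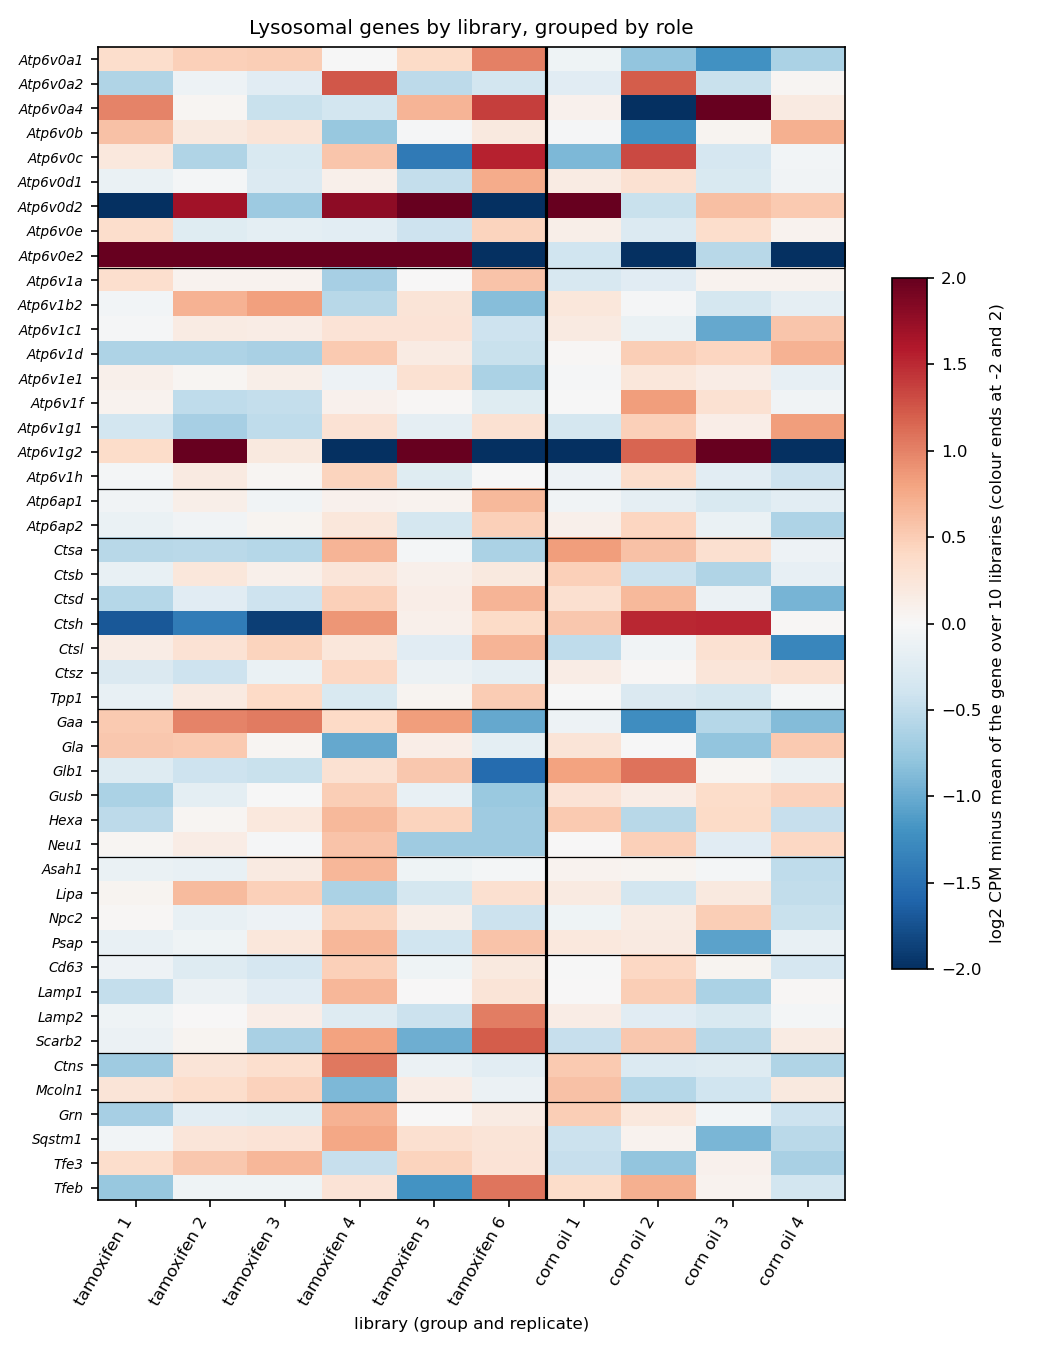
Log2 CPM of each lysosomal gene in each library, less the gene's mean over the 10 libraries (colour, ending at -2 and 2), with tamoxifen libraries on the left, corn oil libraries on the right and genes grouped by role. Tamoxifen replicates 1 to 3 resemble each other, and replicates 4 and 6 hold the highest value of 14 and 13 genes.

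Other genes of the pathway were taken from 5 lists. Of these 97 further genes, all tested, 4 were higher in tamoxifen at an unadjusted p under 0.05 (4.12%, against 4.43% of all genes) and 2 were lower (2.06%, against 5.27% of all genes). By edgeR 0 passed the FDR, with a smallest adjusted p of 0.289, and the median log2 fold change was 0.087. Of 32 other hydrolases, the cathepsin gene Ctsf was higher at that level (2.58, adjusted p 0.496) and the sulfatase gene Galns lower (-1.06, adjusted p 0.433). Of 18 other lysosomal membrane proteins 2 were higher, among them Hgsnat, which acetylates heparan sulfate in the lysosome, at 0.86 with an adjusted p of 0.427. Hgsnat was at 100.3 ± 35.6 normalised CPM in tamoxifen and 55.3 ± 18.4 in corn oil, and its groups overlapped. None of 11 genes for enzyme sorting had an unadjusted p under 0.05, with Sort1 at -1.07 and Gga1 at 0.43.

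Of 15 genes that control TFEB and dock mTORC1 on the lysosome, Lamtor4, a subunit of the Ragulator scaffold, was lower at an unadjusted p under 0.05. It was at 63.8 ± 20.5 normalised CPM in tamoxifen and 119.8 ± 38.4 in corn oil, a log2 fold change of -0.91 ± 0.29 (SE) with an adjusted p of 0.318 by edgeR, and its fellow subunit Lamtor5 was at -0.56 with an adjusted p of 0.528. Of 21 autophagy genes 16 were above 0, with a median of 0.15. Map1lc3b, encoding the LC3 protein that coats autophagosomes and binds p62, was the 1 with an unadjusted p under 0.05. It had 716, 744, 834, 789, 416 and 772 normalised CPM in tamoxifen replicates 1 to 6, against 405, 477, 422 and 295 in corn oil replicates 1 to 4. Tamoxifen replicate 5 lay among the corn oil values and the other 5 lay above them, with a log2 fold change of 0.83 ± 0.25 (SE) and an adjusted p of 0.289. The autophagy gene Atg12 followed at 0.68, with an adjusted p of 0.517.

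Markers of other cell types are given beside these counts. Of 16 tested macrophage markers 5 were above 0 and 11 below, with a median of -0.27, and Adgre1 was not analysed here. The macrophage marker Cd14 did not overlap between groups, with 699 to 936 normalised CPM in tamoxifen and 249 to 584 in corn oil and an adjusted p of 0.227 by edgeR, while Aif1 was at -2.21. Of 13 tested fibroblast markers 12 were above 0, with a median of 0.75, and Dcn and Lum were at 2.28 and 2.36. Summed neutrophil markers were 6.66 to 138 normalised CPM in tamoxifen and 17.6 to 168 in corn oil, and summed acinar markers 33.1 to 86.9 in tamoxifen and 17.2 to 204 in corn oil. The acinar sum held 6 of the 9 listed markers. Only 1 acinar marker was tested, with a log2 fold change of -1.15 and an unadjusted p under 0.05 by edgeR. The ductal markers with an unadjusted p under 0.05 were Sox9, Muc1 and Cldn7, all below 0, where 5.27% of all genes were lower at that level. Summed ductal markers were 14831 to 26360 in tamoxifen and 16422 to 32272 in corn oil. The part of these shifts in the values of the lysosomal genes was not tested.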

How the data were processed

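The deposited table holds raw read counts per gene symbol for 10 libraries. Its making involved featureCounts 1.5.0-p3, STAR 2.5.2b and bcl2fastq 2.17, with the mm10 build, per the submitters' processing notes. For the gene annotation, the strand setting and reads that map to several places, the settings were not given in the sources used here. Per the labels' protocols, cDNA was amplified with a SMART-seq v4 kit and libraries were made with Nextera XT, which do not mark strand or count molecules.

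Tamoxifen was compared with corn oil on TMM-scaled counts with edgeR 4.0.16 in R 4.3.3 (filterByExpr, quasi-likelihood F test, no covariate). The procedure was first run on simulated counts drawn as independent libraries, so that run says nothing of libraries that share an animal. P-values were adjusted over all 13006 genes tested by the Benjamini-Hochberg method. SEs are the absolute log2 fold change over the square root of F. Log2 CPM used a prior count of 2. Exon lengths, positions and overlaps came from GENCODE M21 (GRCm38, the assembly behind mm10), and promoters from the RefSeq table for GRCm38.p6. P-values measure the spread between these libraries, which may share animals.

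The members, gene lists and tests were chosen with earlier results of these data known. Members with an unadjusted p under 0.05, the 2 most abundant of each role, and Tfeb, Tfe3, Ctns, Mcoln1 and Sqstm1 are described in full, and of each other list the 2 genes of smallest p and, for cell types, the 2 most abundant. Members outside these are given by a fold change. A gene of the other lists that this rule names is not reported here.

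As alternatives, the scaling was changed to upper-quartile or RLE factors, the filter was dropped or set to 5 CPM in 4 libraries, and the test was changed to DESeq2 1.42.0, limma 3.58.1 voom with sample quality weights, edgeR with robust dispersion or with sex as a covariate. An FDR of 0.1 was also read. Each library was left out in turn, as were tamoxifen replicates 1 to 3 and tamoxifen replicates 4 and 6 together, and the counts of tamoxifen replicates 1 to 3 were summed into 1 sample.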

Additional observations from a re-analysis of the deposited data

Results flagged for a closer look

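Within each group, the highest and lowest library of each of the 47 tested genes were set against the others of that group (94 comparisons), and in 7 of these a library stood farther off than Dixon's critical value. Chance flags about 1 in 20 such comparisons. Tamoxifen replicate 4 was the high library for 4 genes. There Atp6v0a2 was at 76.2 normalised CPM (21.2 to 29.9 in the other tamoxifen libraries), Ctsa at 636 (257 to 384), Ctsz at 506 (285 to 350.3) and Asah1 at 469 (267 to 335). Tamoxifen replicate 6 was high for 2 genes, with Atp6ap1 at 450.2 (275 to 312 in the other tamoxifen libraries) and Lamp2 at 782 (284 to 422). Both genes lie on the X chromosome, where 5 of the 48 genes lie. By Xist and Ddx3y, replicate 6 was the only tamoxifen library from a female. The part of sex in these values was not tested. In the corn oil group, Atp6v0d2 was at 95.2 in replicate 1 and at 2.87 to 6.0 in the others.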

How the results depend on the processing

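The count of members past the FDR (0) was 1 with DESeq2 (1.87% of all genes in that fit passed), 7 with limma voom (9.62%) and 1 without tamoxifen replicates 4 and 6 (Gaa; 0.602%), and 0 in all fits that left out 1 library (0 to 0). Higher members at an unadjusted p under 0.05 (5) numbered 2 with sex as a covariate (4.47% of all genes were higher). They numbered 3 without tamoxifen replicates 1 to 3 (2.39%). With 1 library left out they numbered 4 to 6 (3.58% to 5.76%). Lower members (2) numbered 1 with DESeq2 (5.75% of all genes were lower), 1 with RLE factors (5.01%) and 8 with limma voom (15.6%). They numbered 0 when tamoxifen replicates 1 to 3 were summed into 1 sample (2.67%) or left out (2.23%). Without tamoxifen replicates 4 and 6 they numbered 6 (10.1%), and with 1 library left out 0 to 5 (3.41% to 7.07%). Members whose groups did not overlap (2) numbered 1 with the filter of 5 CPM and 1 with upper-quartile factors. They numbered 7 without tamoxifen replicates 4 and 6, and 2 to 5 with 1 library left out. The shares of all genes beside these counts are not given here, and groups of fewer libraries overlap less easily for any gene. The cause of these shifts was not tested.

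The 7 members at an unadjusted p under 0.05 kept their sign in all alternatives, with log2 fold changes of 0.90 to 1.5 for Gaa, 3.53 to 6.12 for Atp6v0e2, 0.55 to 0.97 for Tfe3, -2.21 to -0.53 for Ctsh and -0.87 to -0.30 for Atp6v1d. The median over all members lay between -0.04 and 0.15. Signs turned for genes near 0. Without tamoxifen replicates 4 and 6, the log2 fold change was -0.11 for Atp6ap2, 0.089 for Atp6v1e1 and -0.22 for Lamp1. Without tamoxifen replicates 1 to 3 it was -0.17 for Atp6v0b, 0.16 for Cd63, 0.36 for Ctsd, 0.23 for Grn, -0.25 for Mcoln1, 0.023 for Npc2 and 0.084 for Tfeb. With these counted as 1 sample it was -0.028 for Atp6v0b, 0.064 for Cd63, 0.20 for Ctsd, 0.11 for Grn and -0.063 for Mcoln1. With limma voom it was 0.048 for Atp6v1e1 and -0.099 for Lamp1. For Ctsd it was 0.015 with DESeq2 and with RLE factors and 0.011 with sex as a covariate. With 1 library left out, the log2 fold change ran from -0.090 to 0.25 for Atp6ap2, -0.15 to 0.42 for Atp6v0b, -0.20 to 0.0094 for Atp6v0e, -0.12 to 0.046 for Atp6v1e1, -0.17 to 0.090 for Cd63, -0.23 to 0.24 for Ctsd, -0.26 to 0.090 for Grn, -0.13 to 0.24 for Lamp1, -0.082 to 0.32 for Mcoln1 and -0.20 to 0.11 for Npc2. Atp6v0c and Atp6v1c2 had few counts even in the deepest library, corn oil replicate 2, with 41 and 12. The cause of these low counts was not tested.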

Other observations

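Ctsf, an acid cathepsin outside the chosen set, was distributed over the libraries much like Atp6v0e2, and it is named here after its values were seen. Ctsf had 59.5, 56.5, 72.3, 30.3, 22.8 and 0.327 normalised CPM in tamoxifen replicates 1 to 6, against 13, 0.518, 12.8 and 0.707 in corn oil replicates 1 to 4. For both genes tamoxifen replicates 1 to 5 lay above every corn oil library, and corn oil replicates 1 and 3 lay above corn oil replicates 2 and 4. Both were near 0 in tamoxifen replicate 6, which had the fewest genes detected, 11643 against 12658 to 14674 in the other libraries. Other genes of the lists were near 0 there too, among them Pla2g15 and Gga2 at 0.49 each, also named after their values were seen. Atp6v0e2 and Ctsf were near 0 in corn oil replicate 2 as well, at 0.0915 and 0.518, and that was the deepest library, at 36132316 counts. The cause of these low values was not tested. The labels do not say what these libraries share.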
